A study of Mus musculus with 3 samples.

Results

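The integrin and laminin genes of OCCM-30 cells are described here: the receptor chains by which a cell holds its matrix, and the basement membrane proteins and fibronectin that many of those receptors hold. Members were taken by symbol from the deposited gene table, as every integrin alpha and beta chain, the integrin-like gene Itgbl1, every laminin alpha, beta and gamma chain, both nidogens, perlecan (Hspg2) and fibronectin (Fn1). This gave 42 of 46095 genes, and the 31 of them with at least 20 counts summed over the libraries were compared. OCCM-30 is an immortalised mouse line of cementoblasts, the cells that form the mineralised cementum of the tooth root. The day 0 culture had no cementogenic differentiation, and the other cultures had 7 or 14 days of it. Each of these 3 time points was sequenced as 1 library of total RNA from this single line, so nothing here could be checked against replicates and p-values are not given. Days of induction and days of culture cannot be told apart, since no uninduced culture of the same age is analysed here.

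Integrins are pairs of 1 alpha and 1 beta chain that span the cell membrane, and the alpha chain largely sets the ligand. Chains alpha-1, alpha-2, alpha-10 and alpha-11 bind collagens, alpha-3, alpha-6 and alpha-7 bind laminins, alpha-5, alpha-8, alpha-V and alpha-IIb bind proteins with the tripeptide Arg-Gly-Asp (RGD), and a further group including alpha-4 and alpha-9 binds fibronectin, tenascin C and cell surface ligands. Laminins are trimers of 1 alpha, 1 beta and 1 gamma chain that polymerise into the sheet of basement membranes, and nidogens and perlecan tie that sheet to type IV collagen. Integrins bind laminin mainly through the globular end of the alpha chain, and also need a glutamate near the end of the gamma chain, as shown with human recombinant laminins. In cementum and periodontal ligament, integrins anchor cells to a matrix made chiefly of fibrillar collagen.

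The coding end of the laminin gamma-3 chain is shown because its RNA was first detected in the induced cells and because integrin binding is known to depend on this end of a gamma chain. The line gives the last 30 coding bases before the stop codon, 5′ to 3′ on the coding strand, from GENCODE transcripts of GRCm38 (mm10), with the third codon from the end in capitals.
Lamc3 (chr2:31945382-31945411, plus strand): ctgagcagtctgccagagaacTGTgccagc
The capitals are a cysteine codon and not a glutamate codon, and the whole chain has 1581 codons. A glutamate codon, gag, stands earlier in the line. Whether this chain meets the need for a glutamate named above was not tested.

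The cell-binding site of fibronectin, which alpha-5, alpha-8 and alpha-V integrins recognise, is shown because Fn1 had the highest level of all members in every library. The line gives 30 coding bases with the RGD codons in capitals.
Fn1 (chr1:71606734-71606763, minus strand): gtcactggcCGTGGGGACagtccagcaagc
The full chain of 2477 codons holds the tripeptide at 2 places, and the one printed is the one followed by serine. Counts per gene do not separate splice forms of Fn1.

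The libraries held 13224690 counts on day 0, 14034518 on day 7 and 14439666 on day 14. Levels are given as the authors' FPKM, which is per length and so can be compared between genes, but is scaled to library totals; folds are ratios of counts scaled with TMM factors, with an exact 95% counting interval in brackets. The words rose and fell mark genes with at least 1 CPM (counts per library of a common size, TMM-scaled) in the higher library, a ratio of 2-fold or more and an interval that excluded no change. These intervals, and the floors used for a count of 0, cover counting error only, and not variation between cultures. They treat reads as independent, which PCR reads lacking molecular identifiers are not, so the true counting error may be larger. All 8 osteoblast and cementoblast markers were detected in every library, at a summed 1828, 2118 and 2359 FPKM. Most of that sum was Col1a1, which many other cells also express, at 1617, 1662 and 1875 FPKM. On day 0 Ibsp, Bglap and Bglap2 had only 6, 6 and 12 counts, while Runx2, Sp7 and Alpl had 3481, 138 and 756. Of the 8, 5 were called higher on day 7 and 6 on day 14, beside 12.2% and 9.5% of all genes. Markers of other cells were low: summed FPKM on the 3 days was 10.9, 5.04 and 5.77 for 11 leukocyte genes, 0.757, 0.894 and 0.543 for 7 endothelial genes, 2.06, 0.213 and 0.0651 for 6 epithelial genes, 2.98, 7.003 and 7.15 for 5 skeletal muscle genes, and 1.94, 0.908 and 0.799 for 4 Schwann cell genes.

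On day 7, 12 members rose and 9 fell of the 30 that had 1 CPM or more in either library. Of all 14694 genes tested, 12.2% rose and 11.4% fell, against 40% and 30% of the members. On day 14 11 members rose and 9 fell of 31 tested, against 9.5% and 8.14% of 14593 genes. The median log2 ratio of the members was 0.05 on day 7 and 0.03 on day 14, beside 0.00 and -0.01 for all genes, so the members moved in both directions by about equal numbers. Of the members called on each day, 10 were higher on both and 8 lower on both. Day 7 and day 14 share the day 0 library. The same overlap was not counted over all genes, so it cannot be called particular to the members. With library totals as the only scaling, log2 ratios shifted by a median of -0.15 for day 7 and -0.16 for day 14, which gave 9 members higher and 10 lower on day 7, and 10 of each on day 14; over all genes the split went from 1799 higher and 1679 lower to 1476 and 2121 on day 7, and from 1387 and 1188 to 1139 and 1541 on day 14.

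**Figure D1:**
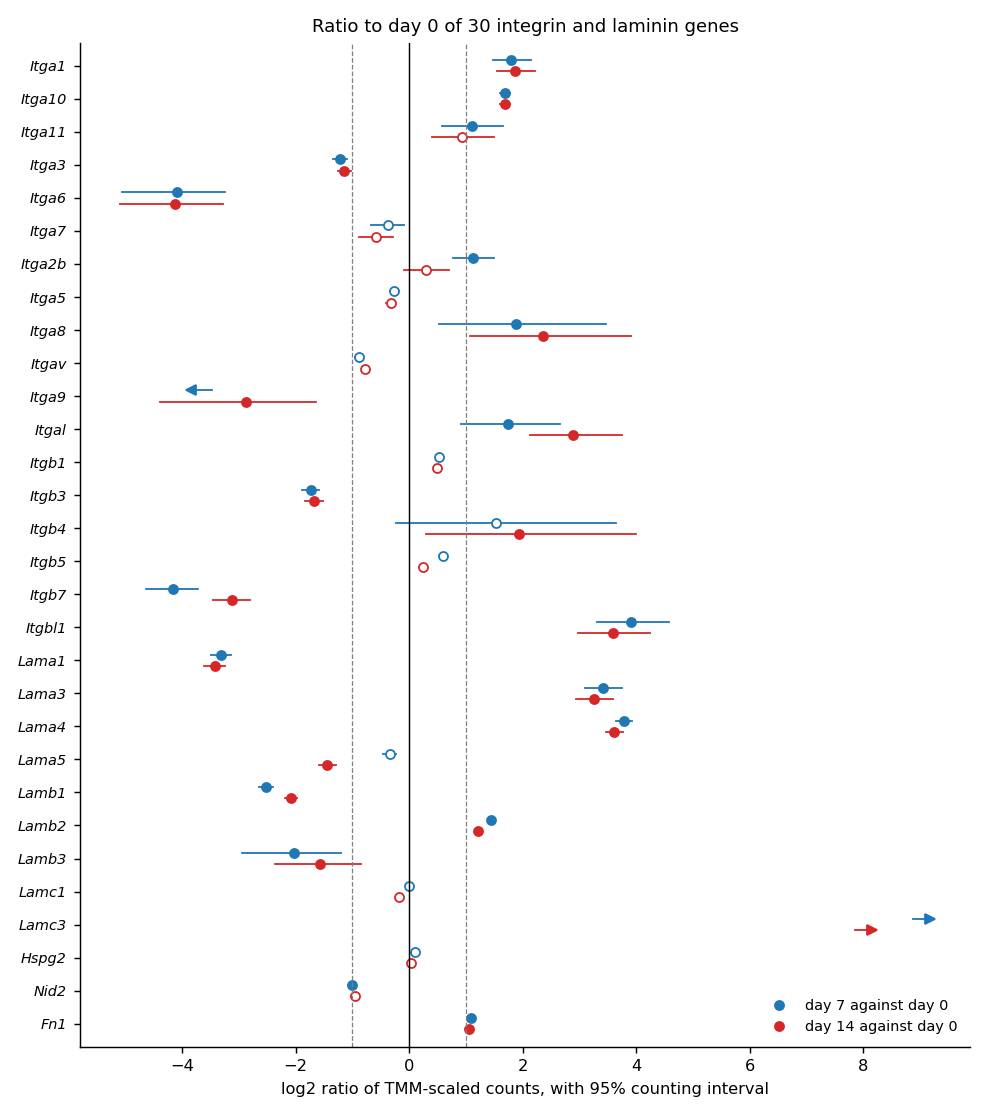
Log2 ratio to day 0 of TMM-scaled counts for 30 of the compared genes (blue, day 7; red, day 14), with 95% counting intervals as lines; filled marks passed the size rule, open marks did not, triangles are bounds against a floor of 3 counts whose outer side has no limit, and dashed lines mark 2-fold. Lama4, Lama3, Itgbl1 and Lamc3 lie far to the right and Itga6, Itgb7, Itga9 and Lama1 far to the left, while Hspg2, Lamc1 and Itga5 lie near 0 on both days.

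Among the laminin alpha chains, the leading gene changed from Lama1 to Lama4. Lama1, the alpha chain of embryonic basement membranes (mm10 chromosome 17, 67697127 to 67822645), had 24.6 FPKM on day 0, 2.23 on day 7 and 2.04 on day 14, from 3094, 298 and 281 counts. Lama4, a chain of mesenchymal and vascular basement membranes (chromosome 10, 38965515 to 39110188), had 5.15, 63.7 and 56.5 FPKM, from 412, 5406 and 4932 counts. Only the day 0 library was high for Lama1 and low for Lama4. Lama1 fell 9.89-fold (8.78 to 11.2) by day 7 and 10.8-fold (9.51 to 12.2) by day 14, and Lama4 rose 13.8-fold (12.46 to 15.3) and 12.3-fold (11.1 to 13.6). Whether fewer cells expressed a gene or each cell held less of its RNA cannot be told apart in these bulk libraries.

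Read within each library, where no scaling between days enters, Lama1 RNA was 4.77 times Lama4 RNA per length on day 0 (4.30 to 5.30). Lama4 was 28.6 times Lama1 on day 7 (25.4 to 32.2) and 27.6 times on day 14 (24.5 to 31.3). As a share of the summed FPKM of the alpha chains, Lama4 went from 12.9% to 80.9% and 84.3%, and Lama1 from 61.4% to 2.83% and 3.05%. The sum of all 5 laminin alpha chains in the 3 libraries was 40.01, 78.8 and 67.0 FPKM. The endothelial markers, whose cells also make Lama4, had 4 of 7 genes at 0 counts on day 0, 4 on day 7 and 5 on day 14, with Cdh5, Kdr and Emcn at 0 in every library. Of the rest, Vwf had 41, 31 and 36 counts and Pecam1 had 19, 32 and 14, and their part in the Lama4 values was not tested.

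The remaining alpha chains moved less or stood lower. Lama3, the alpha chain of the epithelial anchoring laminin (chromosome 18, 12333718 to 12583013), had 0.620, 5.95 and 5.28 FPKM, and rose 10.7-fold (8.57 to 13.5) by day 7 and 9.52-fold (7.63 to 12.02) by day 14. Lamb3, the beta chain of that laminin, did not rise with it. It had 64, 15 and 21 counts and fell 4.07-fold (2.29 to 7.68) by day 7 and 2.98-fold (1.79 to 5.13) by day 14. Epcam and Krt5, which define epithelial cells, were at 0 in all libraries, and Krt8 had 47, 2 and 0 counts.

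Lama5, an alpha chain widespread in adult basement membranes, was the only laminin alpha chain to fall between day 7 and day 14. It had 9.60, 6.82 and 3.16 FPKM, from 1462, 1102 and 526 counts. Against day 0 its ratio was 0.791 (0.731 to 0.856) on day 7, within 2-fold, and it was 2.71-fold lower (2.46 to 3.004) on day 14. The step from day 7 to day 14 was a 2.15-fold fall (1.93 to 2.39). Lama2, the alpha chain of muscle basement membranes, had 7, 7 and 3 counts and was too low to compare.

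**Figure D2:**
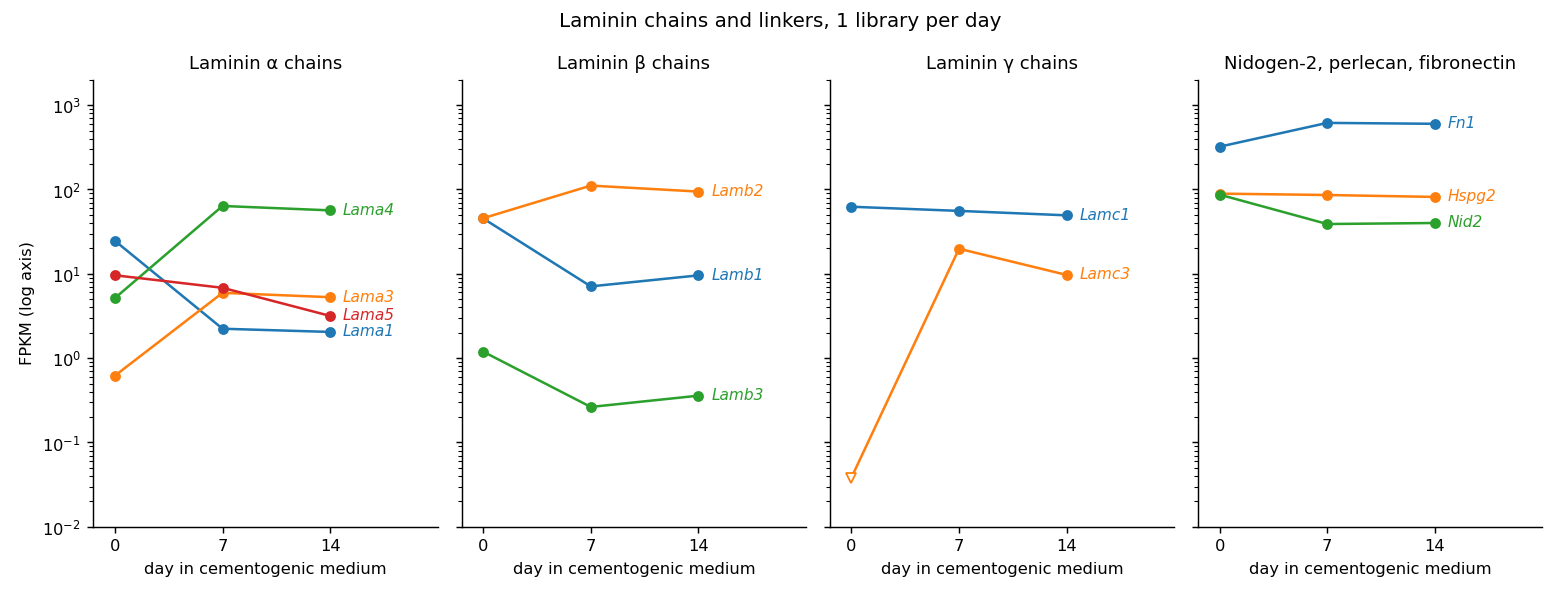
Authors' FPKM on a log axis for laminin alpha, beta and gamma chains and for nidogen-2, perlecan and fibronectin at 0, 7 and 14 days, 1 library per point; the open triangle marks 0 counts, drawn at the floor of 3 counts. The lines of Lama1 and Lama4 cross between day 0 and day 7, those of Lamb1 and Lamb2 part from a common point, and Lamc3 goes from 0 to 19.8 FPKM.

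The beta chains separated in the same interval. Lamb1 (chromosome 12, 31265146 to 31329644) and Lamb2 (chromosome 9, 108479857 to 108490530), the interchangeable beta chains of most laminins, stood level on day 0 at 45.3 and 45.6 FPKM. Lamb1 then had 7.09 FPKM on day 7 and 9.58 on day 14, and Lamb2 had 111 and 94.3. Both libraries of induced cells were therefore low for Lamb1 and high for Lamb2. Lamb1 fell 5.74-fold (5.25 to 6.28) and 4.23-fold (3.92 to 4.58), and Lamb2 rose 2.71-fold (2.61 to 2.82) and 2.31-fold (2.22 to 2.41). Per length, the ratio of Lamb2 to Lamb1 within a library was 1.01 (0.959 to 1.06) on day 0, 15.7 (14.4 to 17.1) on day 7 and 9.85 (9.16 to 10.6) on day 14.

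Among the gamma chains, Lamc1 held its level and Lamc3 was added to it. Lamc1, the gamma chain of most laminins (chromosome 1, 153218922 to 153332786), had 62.4, 55.7 and 49.3 FPKM, with ratios to day 0 of 0.995 (0.960 to 1.03) and 0.884 (0.853 to 0.917). Lamc3 (chromosome 2, 31887281 to 31946535), the chain whose coding end is printed above, had 0 counts on day 0, 1649 on day 7 and 830 on day 14. In FPKM these are 0, 19.8 and 9.69. A count of 0 on day 0 allows up to 3 counts, or 0.0383 FPKM, so Lamc3 was at least 577-fold higher on day 7 and at least 283-fold higher on day 14 against that floor; the exact intervals, which also carry the error of the later count, begin at 469 and 229.9. It fell 2.04-fold (1.87 to 2.22) from day 7 to day 14. Lamc3 made up 26.0% of the summed gamma chain FPKM on day 7 and 16.2% on day 14, and Lamc1 RNA was still 2.81 times (2.66 to 2.97) and 5.09 times (4.73 to 5.48) more abundant per length.

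Taking for each trimer the least abundant of its chain RNAs shows how the chains matched. Chains shared between trimers, such as Lamb2 and Lamc1, were counted in full for each, so the levels cannot be added. Assembled protein was not measured. For alpha-1, beta-1 and gamma-1, the classical embryonic laminin, that lowest level was 24.6 FPKM on day 0, 2.23 on day 7 and 2.04 on day 14, each time set by Lama1. For alpha-4, beta-2 and gamma-1 it was 5.15 FPKM on day 0, set by Lama4, and 55.7 and 49.3 on day 7 and 14, set by Lamc1. The same trimer with gamma-3 in place of gamma-1 went from 0 to 19.8 and 9.69 FPKM, set by Lamc3. With alpha-4, beta-1 and gamma-1 the level was 5.15, 7.09 and 9.58 FPKM, and with alpha-5, beta-2 and gamma-1 it was 9.60, 6.82 and 3.16.

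**Figure D3:**
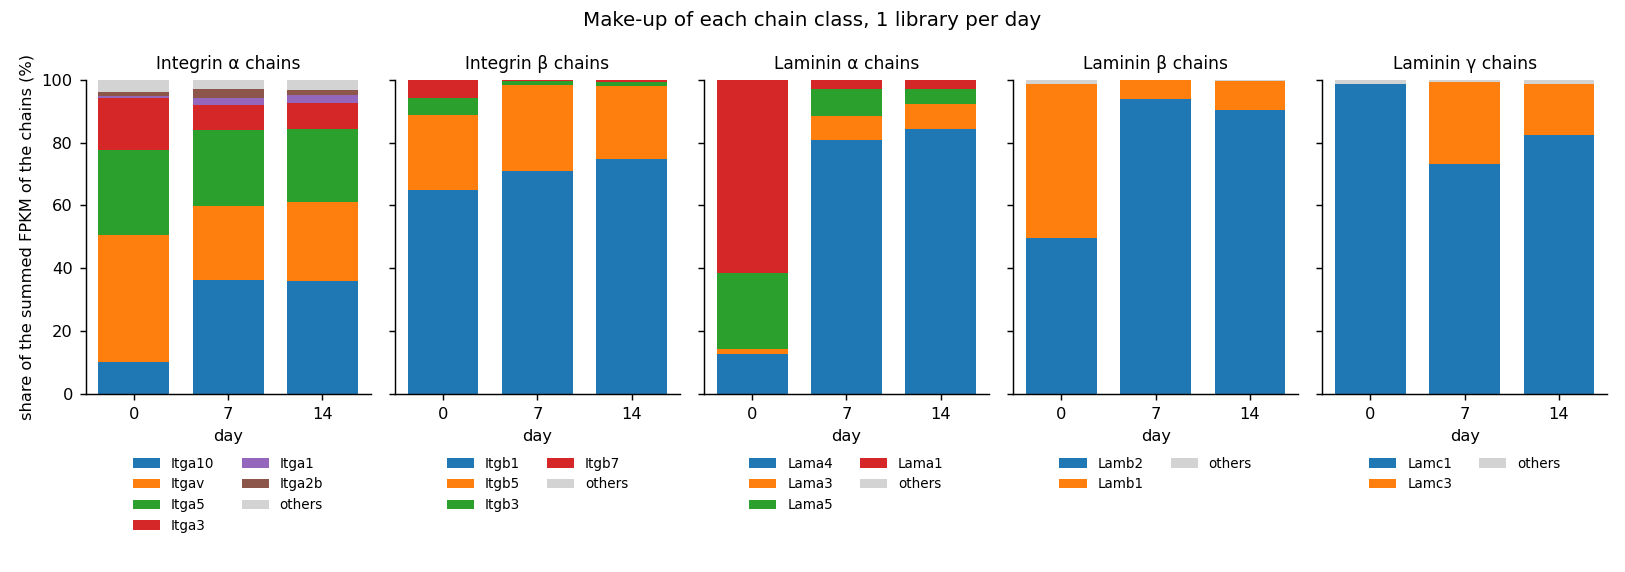
Share of the summed FPKM of each chain class held by each gene, in percent, at 0, 7 and 14 days (1 library per bar; genes under 2% in every library are pooled in grey). Lama4 reaches 80.9% of laminin alpha chains, Lamb2 93.8% of beta chains and Lamc3 26.0% of gamma chains on day 7, while Itga10 goes from 10.3% to 36.1% of integrin alpha chains.

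The linkers of the laminin network did not rise with Lama4 and Lamb2. Perlecan, the heparan sulfate proteoglycan Hspg2 (chromosome 4, 137468764 to 137570630), was flat at 89.2, 86.0 and 81.5 FPKM, with ratios to day 0 of 1.07 and 1.02. Nid2 (nidogen-2) had 86.8, 38.9 and 40.0 FPKM, and lies at the 2-fold boundary: it was 2.003-fold lower on day 7 (1.91 to 2.10), which passed, and 1.94-fold lower on day 14 (1.85 to 2.03), which did not. Nid2 overlaps 2700060E02Rik on the opposite strand, which had 1125, 1117 and 1039 counts, and whether counting used strand is unknown. Nid1 (nidogen-1), the widespread nidogen, had 4, 0 and 0 counts, so nidogen RNA in these cells was almost all Nid2.

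Other basement membrane proteins and laminin receptors were taken from a list of 29 genes. On day 7 10 of the 22 tested rose and 4 fell, or 45.5% and 18.2% beside 12.2% and 11.4% of all genes. On day 14 10 of 23 rose and 2 fell, or 43.5% and 8.7% beside 9.5% and 8.14%. The median log2 ratio was 0.83 and 0.36. Papln (papilin) had 3, 631 and 564 counts and rose 221-fold (75.2 to 1073) by day 7. Hmcn1 (hemicentin-1) had 5, 183 and 120 counts and rose 38.4-fold (16.2 to 120). Smoc2, a SPARC-related calcium-binding protein, rose 9.36-fold (7.34 to 12.1), from 73 to 651 counts. The main type IV collagen chains, to which nidogen links laminin, were called higher but stayed low, at 4, 30 and 17 counts for Col4a1 and 12, 64 and 66 for Col4a2, whereas Col4a5 had 37.7, 22.3 and 22 FPKM and stayed within 2-fold.

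Fibronectin, the RGD ligand that cells assemble into fibrils, rose. Fn1 (chromosome 1, 71585473 to 71653234) had 322 FPKM on day 0, 616 on day 7 and 600.3 on day 14, from 35827, 72796 and 73034 counts. The ratio was 2.13 (2.11 to 2.16) on day 7 and 2.09 (2.06 to 2.11) on day 14. Both induced libraries were thus alike and above day 0, although scaling by total counts gave log2 ratios of 0.94 and 0.90, under 2-fold on both days.

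The more abundant fibronectin receptor chains, Itga5 and Itgav, did not rise. Itga5, the classical fibronectin receptor chain (chromosome 15, 103344286 to 103366791), had 50.9, 38.1 and 36.4 FPKM, with ratios of 0.833 (0.789 to 0.879) and 0.799 (0.756 to 0.843). Itgav, which pairs with several beta chains and binds many RGD proteins (chromosome 2, 83724108 to 83806917), had 76.2, 36.9 and 39.7 FPKM and was 1.85-fold (1.78 to 1.93) and 1.71-fold (1.65 to 1.78) lower, short of the 2-fold rule; with total counts alone its day 7 ratio passed it. Within a library Fn1 RNA was 6.31 times Itga5 RNA per length on day 0 (6.08 to 6.55), 16.2 times on day 7 (15.5 to 16.8) and 16.5 times on day 14 (15.8 to 17.2). Itgav was 1.496 times Itga5 on day 0 (1.43 to 1.56), and level with it on day 7, at 0.969 (0.920 to 1.02). The share of Itgav among integrin alpha chains went from 40.2% to 23.6% and 25.3%.

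The less abundant alpha chains that bind RGD or belong to the alpha-4 group had few counts. Itga8, a nephronectin and fibronectin receptor chain, had 6, 21 and 30 counts and rose 3.67-fold (1.43 to 11.1) and 5.12-fold (2.10 to 15.05). Its ligand Npnt (nephronectin) had 18.4, 31 and 35.4 FPKM and rose 2.14-fold (1.999 to 2.30) by day 14, after a ratio of 1.87 (1.74 to 2.01) on day 7; its FPKM, scaled to library totals, differ by less than 2-fold. Itga9, which binds tenascin C and osteopontin, had 45, 0 and 6 counts; it was at least 14.3-fold lower on day 7 against the floor of 3 counts (the exact interval begins at 11.2), and 7.32-fold lower (3.11 to 21.01) on day 14. Itga9 overlaps Gm10157 on the opposite strand, which had 289, 241 and 263 counts. Of the ligands of Itga9 named here, Tnc (tenascin C) went the opposite way, with 11.5, 92.7 and 101 FPKM. Spp1 (osteopontin) had 143, 203 and 152 FPKM and stayed within 2-fold. Itga4, which binds fibronectin and Vcam1, had 0 counts in every library, which allows at most 0.0231 FPKM on day 0. Itga2b, the platelet fibrinogen receptor chain, had 97, 201 and 117 counts and rose only on day 7, 2.17-fold (1.70 to 2.80); with total counts alone that ratio was under 2-fold. Of 4 platelet markers Pf4 and Ppbp were at 0 in all libraries, and the list summed to 0, 3 and 1 counts.

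Of the 3 laminin-binding alpha chains, 2 fell on both days and none rose, beside 11.4% of all genes lower on day 7 and 8.14% on day 14. Itga3 (chromosome 11, 95044475 to 95076811), which prefers laminins with alpha-3 or alpha-5, had 31.6, 12.2 and 12.8 FPKM and fell 2.33-fold (2.15 to 2.53) and 2.21-fold (2.04 to 2.39). Itga6 (chromosome 2, 71786886 to 71858427), which binds most laminins, had 213, 12 and 12 counts, or 2.68, 0.142 and 0.138 FPKM, and fell 16.9-fold (9.48 to 33.3) and 17.3-fold (9.72 to 34.1). Only the day 0 library was high for either gene. The epithelial list went from 49 counts to 6 and 2, through the single gene Krt8, which had 47, 2 and 0. In the same list Krt18 had 0, 2 and 1 counts, and Epcam and Krt5 were at 0. The part of epithelial cells in the Itga6 and Lamb3 values was not tested. Itga7, the muscle laminin receptor chain, had 3.33, 2.31 and 1.99 FPKM and stayed within 2-fold, with ratios of 0.771 (0.628 to 0.945) and 0.668 (0.540 to 0.824). The summed FPKM of these 3 chains was 37.6, 14.6 and 14.9.

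Laminin also has receptors outside the integrins. Dag1 (dystroglycan), which binds the globular end of laminin alpha chains, had 72.0, 58.6 and 63.2 FPKM, with ratios of 0.906 (0.871 to 0.943) and 0.982 (0.945 to 1.02). Cd151, a tetraspanin that associates with alpha-3 and alpha-6 integrins, had 41.5, 10.6 and 15.3 FPKM and fell 3.53-fold (3.10 to 4.05) and 2.43-fold (2.17 to 2.73). Bcam, a receptor for laminin alpha-5, had 24, 108 and 60 counts and rose 4.72-fold (3.01 to 7.69) and 2.56-fold (1.57 to 4.30). Plec (plectin), which links the beta-4 chain to keratin filaments, had 103, 47.6 and 55.3 FPKM; its TMM-scaled ratio was 1.94-fold lower on day 7 and 1.66-fold lower on day 14, short of the 2-fold rule, which the day 7 FPKM, scaled to library totals, would pass.

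Of the 4 collagen-binding alpha chains 3 were tested, and 3 rose on day 7 and 2 on day 14, beside 12.2% and 9.5% of all genes. Itga10 (chromosome 3, 96645584 to 96664519), a collagen receptor chain best known from cartilage, had 19.6, 56.6 and 56.4 FPKM, from 1306, 4004 and 4107 counts. It rose 3.22-fold on both days (3.02 to 3.43 on day 7 and 3.03 to 3.43 on day 14), with no step between them (ratio 1.001, 0.958 to 1.05). Itga10 was then the alpha chain with the highest FPKM, at 36.1% and 35.9% of the summed alpha chains against 10.3% on day 0. Itga1, a receptor chain for type IV and other collagens, had 98, 325 and 350 counts and rose 3.48-fold (2.77 to 4.41) and 3.66-fold (2.92 to 4.62); Pelo, a gene listed inside it on the same strand, had 193, 201 and 165 counts.

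Itga11, the fibrillar collagen receptor chain of periodontal fibroblasts, was low in these cells. It had 45, 92 and 84 counts, or 0.689, 1.33 and 1.18 FPKM, and its ratio was 2.15 (1.49 to 3.14) on day 7, which passed, and 1.91 (1.32 to 2.81) on day 14, which did not. The day 7 ratio was under 2-fold with total counts alone. Itga10 RNA exceeded Itga11 RNA per length by 28.4 times (21.1 to 39.2) on day 0, 42.6 times (34.7 to 53.0) on day 7 and 47.9 times (38.6 to 60.2) on day 14. Itga2, the platelet and epithelial collagen receptor chain, had 4, 0 and 0 counts. Summed over the 4 genes, collagen-binding alpha chains had 21.6, 61.8 and 61.7 FPKM.

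Their ligands are collagens. Of 14 collagen genes 12 were tested. On day 7 5 rose and 1 fell, or 41.7% and 8.33% beside 12.2% and 11.4% of all genes. On day 14 3 rose and 1 fell, or 25% and 8.33% beside 9.5% and 8.14%. The median log2 ratios were 0.79 and 0.93. Col1a1 had 1617, 1662 and 1875 FPKM, above every member, and stayed within 2-fold. Col3a1, a fibrillar collagen of soft and healing tissue, had 16.4, 358 and 334 FPKM and rose 24.2-fold (22.9 to 25.7) and 22.7-fold (21.5 to 24.1). Col4a1 and Col4a2, the other collagens called higher on day 14, were low, at 4, 30 and 17 and at 12, 64 and 66 counts. Col2a1, the cartilage collagen that alpha-10 integrin was first isolated with, fell from 90 counts to 6 and 1.

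**Figure D4:**
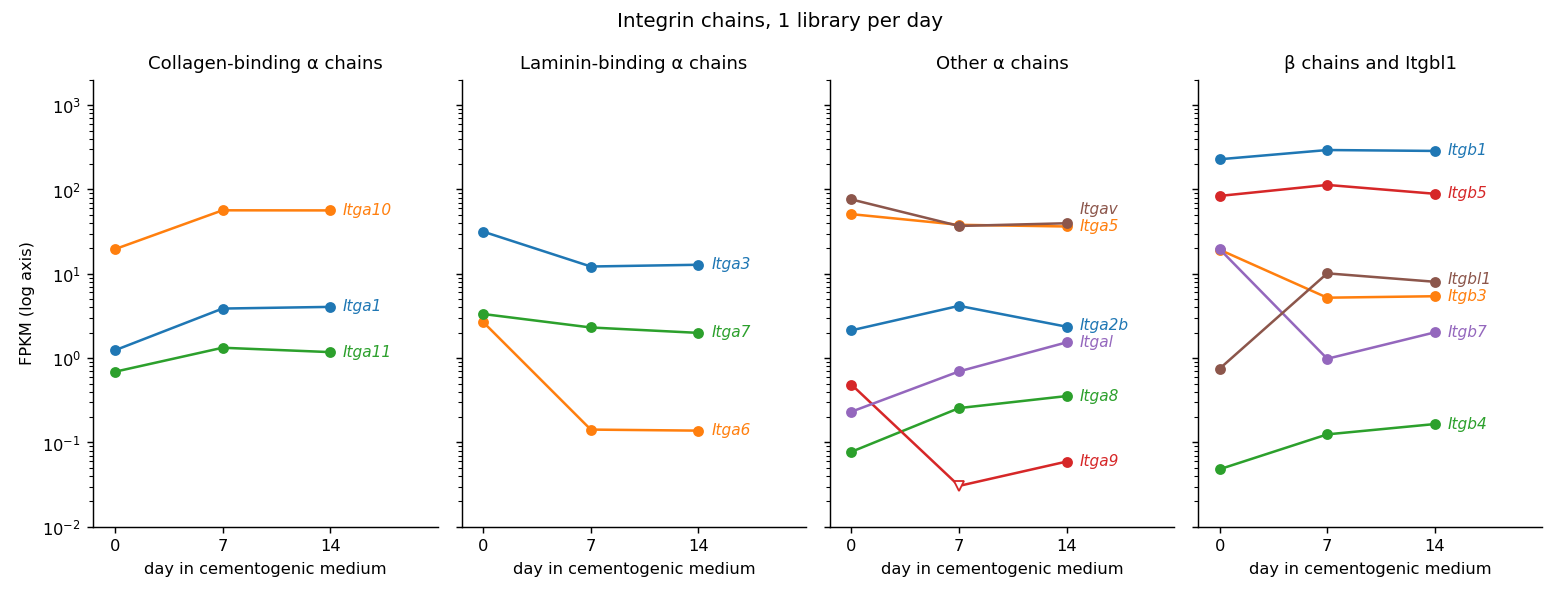
Authors' FPKM on a log axis for integrin alpha chains grouped by ligand, and for beta chains with the integrin-like gene Itgbl1, at 0, 7 and 14 days, 1 library per point; the open triangle marks 0 counts, drawn at the floor of 3 counts. Collagen-binding chains lie above their day 0 level on both later days and laminin-binding chains below it, and Itgb7 and Itgb3 drop while Itgb1 and Itgb5 stay within 2-fold.

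Of the 8 integrin beta chains, Itgb1 and Itgb5 held most of the RNA and stayed within 2-fold. Itgb1 (chromosome 8, 128685654 to 128733579), the partner of all collagen- and laminin-binding alpha chains named above, had 228, 293 and 286 FPKM, with ratios of 1.43 (1.401 to 1.47) and 1.404 (1.37 to 1.44). Itgb5, which with alpha-V binds vitronectin, had 83.8, 113 and 88.9 FPKM, with ratios of 1.504 (1.44 to 1.57) and 1.19 (1.13 to 1.24). Its ligand Vtn (vitronectin) had 0, 2 and 0 counts in these cells.

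Itgb3, the other main partner of alpha-V and a receptor chain for osteopontin and bone sialoprotein (chromosome 11, 104608000 to 104670476), had 19.3, 5.21 and 5.42 FPKM and fell 3.33-fold (2.99 to 3.72) and 3.19-fold (2.87 to 3.55). Within a library Itgb5 RNA was 4.34 times Itgb3 RNA per length on day 0 (4.08 to 4.61), 21.7 times on day 7 (19.7 to 24.1) and 16.4 times on day 14 (14.9 to 18.1). The ligand Ibsp (bone sialoprotein) moved the other way, with 6, 948 and 1190 counts, and Spp1 (osteopontin) had 143, 203 and 152 FPKM, within 2-fold. Itgb6 and Itgb8, which with alpha-V release active TGF-beta, had 3, 3 and 3 and 4, 0 and 0 counts, beside 58, 99.98 and 92.8 FPKM of Tgfb1, the gene for that factor.

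Itgb7, a beta chain of lymphocytes whose partners are alpha-4 and alpha-E, was well detected in the undifferentiated cells. It had 809 counts on day 0, 43 on day 7 and 91 on day 14, or 19.6, 0.983 and 2.02 FPKM, and fell 17.9-fold (13.2 to 25.0) and 8.68-fold (6.98 to 10.9). On day 0 Itgb7 thus stood level with Itgb3. Neither partner was present at a similar level, with Itga4 at 0 counts and Itgae, which the table lists on a scaffold outside the chromosomes, at 0, 2 and 2. Among ligands of the alpha-4 group, Madcam1 had 1, 0 and 0 counts, and Vcam1 had 597, 6 and 20, or 13.3, 0.126 and 0.408 FPKM.

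Itgal, the alpha chain of the leukocyte receptor for Icam1, had 16, 51 and 116 counts and rose 3.35-fold (1.88 to 6.28) and 7.42-fold (4.38 to 13.4). Its partner Itgb2 had 8, 2 and 2 counts, the other leukocyte alpha chains Itgam and Itgad had none, Itgax had 0, 0 and 2, and Icam1 had 1, 0 and 0. Of the 11 leukocyte markers 5, 6 and 7 were at 0 on day 0, 7 and 14; Ptprc, which all leukocytes carry, had 1, 0 and 0 counts, and Adgre1, Tyrobp, Laptm5 and Cd3e had none. Cd68 and Cd14, which held most counts of that list, had 55, 39 and 33 and 101, 49 and 51 counts, and Fcer1g had 19, 6 and 17. The whole list summed to 188, 97 and 102 counts. The part of leukocytes in the Itgb7 and Itgal values was not tested.

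Itgbl1, a secreted protein with repeats like those of integrin beta chains but no membrane anchor (chromosome 14, 123659936 to 123974080), had 0.7496, 10.1 and 8.04 FPKM, from 24, 344 and 281 counts. It rose 15.04-fold (9.94 to 23.8) and 11.99-fold (7.89 to 19.03). Itgb4, the hemidesmosome chain that pairs with alpha-6, had 4, 11 and 15 counts and rose on day 14, 3.84-fold (1.22 to 15.9). Of the genes that overlap it on the opposite strand, Galk1 had 804, 854 and 828 counts and B230344G16Rik had 1, 17 and 10. Their part in the Itgb4 counts was not tested.

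Further ligands of the RGD-binding and alpha-4 group integrins were a list of 22 genes. Of the 18 tested, 7 rose and 4 fell on each day against day 0, or 38.9% and 22.2%. Beside these stand 12.2% and 11.4% of all genes on day 7, and 9.5% and 8.14% on day 14. The median log2 ratios of the list were 0.82 and 0.43. Postn (periostin), which binds alpha-V integrins, had 23.5, 354 and 445 FPKM and rose 16.8-fold (15.8 to 17.9) and 21.2-fold (19.9 to 22.6). Cyr61, a matricellular ligand, had 11.9, 120.2 and 66.6 FPKM and rose 11.3-fold (10.1 to 12.7) and 6.28-fold (5.57 to 7.09). Fbn1, the RGD-bearing microfibril protein, fell from 77 counts to 1 and 20, and Edil3, another RGD ligand of alpha-V integrins, from 72 to 10 and 15.

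The adaptors that join integrin tails to actin were a list of 32 genes. Of 28 tested, 2 rose and 3 fell on day 7, or 7.14% and 10.7% beside 12.2% and 11.4% of all genes, and 2 rose and 1 fell on day 14, or 7.14% and 3.57% beside 9.5% and 8.14%. The median log2 ratio was 0.08 and 0.02. Tns1 (tensin-1), an adaptor of fibrillar adhesions, had 11.6, 68.1 and 83.3 FPKM and rose 6.53-fold (6.19 to 6.90) and 8.02-fold (7.61 to 8.46). Lims2 (PINCH-2), which binds integrin-linked kinase, had 33, 156 and 137 counts and rose 4.96-fold (3.39 to 7.46) and 4.25-fold (2.89 to 6.42). Ptk2b (PYK2), a kinase related to focal adhesion kinase, fell 4.14-fold (3.18 to 5.46) and 3.62-fold (2.82 to 4.68). Flna (filamin A), which binds beta chain tails, had 209, 76.9 and 126 FPKM and fell on day 7, 2.44-fold, but not on day 14, when it was 1.48-fold lower.

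From day 7 to day 14 little moved: of 29 members tested, 2 rose (Itgal, 2.22-fold, 1.58 to 3.15, and Itgb7, 2.07-fold, 1.42 to 3.04) and 2 fell (Lama5 and Lamc3), beside 2.78% higher and 2.3% lower of 14404 genes. The median log2 ratio of the members was -0.03, and Itga10, Itgb1, Fn1, Lama1 and Lama4 had ratios of 1.001, 0.979, 0.979, 0.920 and 0.890. Itgb7, at 43 and 91 counts, was under 2-fold once 0.5 CPM was added to both values.

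The 11 members below 20 summed counts were Itga2, Itga4, Itgad, Itgae, Itgam, Itgax, Itgb2, Itgb6, Itgb8, Lama2 and Nid1. None of them had more than 8 counts in a library. At these depths, where a count was 0, absence from the cells cannot be separated from a level below the floor of 3 counts. That floor is 0.211 CPM on day 0, 0.221 on day 7 and 0.216 on day 14.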

How the data were processed

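Total RNA was sequenced, 1 library per time point, and columns were assigned by name and sample title. The authors deposited whole-number gene counts and FPKM values. The submitters' processing notes name mm10, HTSeq, HISAT2, Cufflinks, TopHat and DESeq, with versions, roles and strand setting not given in the sources used here. Deposited FPKM equalled the count over listed length and library total, within a relative tolerance of 0.001, for every detected member except Itgae. The miRNA files were not used.

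Counts were scaled over all 46095 genes with TMM factors (edgeR 4.0.16, R 4.3.3) of 1.08, 0.966 and 0.962 for day 0, 7 and 14. Ratios have exact Clopper-Pearson 95% intervals conditional on the summed count. Log2 ratios include a pseudocount of 0.5 CPM, and a count of 0 was set to 3 for a bound. No test across samples could be run on single libraries. The rule was tried on simulated Poisson counts with no variation between libraries. That setting is what the intervals assume, so it cannot show how often the rule calls genes between single real cultures. Members and lists were chosen with earlier results of these data known. All members were named but 1, which is not reported here, and from each other list the 3 most abundant genes and up to 4 most changed in each direction could be, with any marker. Npnt, Vtn, Tgfb1, Madcam1, Icam1, Bcam and Col4a5 fall outside that rule and were named, after their values were seen, for their pairing with a member. Alternatives were total counts, the size factors of DESeq2 1.42.0, no minimum or 5 CPM, 4-fold, deposited FPKM, pseudocounts of 0.1 and 2 CPM and, chosen after seeing the data, a size rule with the pseudocount. Coding sequences came from GENCODE M21 (GRCm38). Calculations used Python 3.11.15 with scipy 1.17.1, pandas 2.3.3 and numpy 2.4.6; figures used matplotlib 3.10.9.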

Additional observations from a re-analysis of the deposited data

How the results depend on the processing

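No paired analysis was possible because each time point has 1 library; for the same reason none could be left out. DESeq2 size factors, total counts, no CPM minimum and the deposited FPKM kept every count of members and of all genes within 1.5 times its value; total counts and FPKM ended the calls of Fn1 on both days and of Itga11 and Itga2b on day 7, and added Itgav on day 7 and Nid2 on day 14. No called member changed direction under any scaling or pseudocount. With a 4-fold rule 4 members were higher on day 7 (6 lower, within 1.5 times), 6 higher and 5 lower on day 14, and 0 and 0 for day 14 against day 7; over all genes 718 and 637, 591 and 391, and 76 and 61. A minimum of 5 CPM left 1078 and 1034 genes, 794 and 649, and 111 and 71. With the pseudocount in the size rule, 1 member (Itgal) rose from day 7 to day 14, with 242 genes higher and 183 lower, and Itga11 was no longer called on day 7. Of 93 log2 ratios of single members, 31 moved outside their counting interval with total counts, 4 with DESeq2 and 16 with a pseudocount of 2 CPM. Calls on few counts (Itga8, Itgb4, Itga9, Lamb3) are limited by depth, and a minimum of 5 CPM ended them, with that of Itgal on day 7.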
